A study of Mus musculus with 6 samples.

Results

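The genes of the proteasome were examined in brains of mice given oil palm phenolics (OPP) and of controls. Members were taken by gene name, and the family was chosen with earlier results of these data known. In all, 63 of the 24048 probes on the array carried a symbol of the families *Psma*, *Psmb*, *Psmc*, *Psmd*, *Psme* or *Psmg*, followed by a digit. Of these, 61 probes represent 44 genes of proteasome subunits, activators and assembly chaperones, among 14776 genes named on the array. The other 2 probes belong to *Psmc3ip*, whose product acts in meiotic recombination, and to *Psme3ip1*, whose product binds an activator, and they were set apart. The brains came from male mice of the inbred albino strain BALB/c at 12 weeks of age and on a normal diet, in a study that asked how OPP acts on brain function. For 6 weeks the 3 controls had drunk distilled water and the 3 mice given OPP had drunk OPP at 1500 ppm gallic acid equivalent, both freely available, and all were tested weekly for learning and balance. Whether RNA came from the entire brain is not stated in the methods, nor is it stated which mice were caged together, so that cage and treatment cannot be told apart if each group had its own cage. More arrays were hybridized than were kept. Outliers had been removed by clustering, which narrows the spread between replicates that the tests use.

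The proteasome is the barrel-shaped protease that degrades proteins tagged with ubiquitin. Its core is built of rings of alpha subunits, which gate the entry, around rings of beta subunits, which carry the catalytic sites. A regulatory particle on the end of the core recognizes ubiquitin, unfolds the substrate with a ring of ATPases and removes the tag, and alternative activators can take its place. In inflamed tissue interferon induces an exchange of the catalytic beta subunits, which gives the immunoproteasome and changes the peptides made for antigen presentation. In the brain, proteasomes turn over synaptic and damaged proteins in neurons that are not renewed, and the oxidative stress factor Nrf2 and its relative Nrf1 are known to raise transcription of subunit genes.

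Each array gave 1 intensity per probe, the mean brightness of the probe's beads with background included, and a detection p-value. The intensities were scaled between arrays with factors of 0.901 to 1.06. The number of probes above background, with a detection level (1 minus that p-value) over 0.99, ranged from 7442 to 7903 per array. A probe was tested when its mean detection level was over 0.99 in at least 1 group, which held for 7611 probes. Control replicate 2 stood apart from the others, with a mean correlation of 0.962 with its own group, against 0.974 and 0.975 in the other controls and 0.978 to 0.982 in the mice given OPP. In that brain, the 5 measured granulocyte genes averaged 12.09 on the log2 scale. The means were 9.07 and 9.37 in control replicates 1 and 3 and 8.12 to 8.31 in the mice given OPP. Every control thus lay above every mouse given OPP. All 5 genes had log2 fold changes below 0 (limma, unadjusted p 0.0028 to 0.036, adjusted p 0.989). Of them, *S100a9*, *Camp*, *Ltf* and *Lcn2* passed the detection filter described above only through the controls, where they were higher. The filter thus favoured this direction for these genes, and their shared direction and p-values are a description only. For the 3 measured genes that mark the cerebellum, the mean was 9.12 in control replicate 2 and 9.58 to 10.99 in the other brains. Of 7 genes that mark neurons, 5 were measured and averaged 11.30 to 11.43 in every array. The part of these differences in the proteasome values was not tested, apart from the values without control replicate 2 given with them.

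No tested proteasome gene showed a difference between mice given OPP and controls that passed a test. Of the 61 probes, 37 were tested, representing 31 genes, and these ranged in log2 fold change from -0.20 for *Psmb2* to 0.27 for *Psmd14*. None of the 37 passed an adjusted p under 0.05 in limma (adjusted p 0.989 to 0.999), and over all tested probes 1 did, or 0.0131%. At an unadjusted p under 0.05 in limma, 0 proteasome probes were higher and 0 lower, while 1.71% of all tested probes were higher and 2.23% lower. In 0 of the 37 probes did the 3 values of the mice given OPP all lie above those of the controls, and in 0 all below, against 4.26% and 5.22% of all tested probes. With 3 brains per group, 0.1 is the smallest p that an exact permutation test (two-sided) of a single probe can reach. As RNA of whole tissue was measured, fewer cells of a type and less RNA per cell cannot be told apart.

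The fold changes of the proteasome genes lay close to 0. With the brightest probe of each gene, 23 of the 31 genes had a log2 fold change within 0.1 of 0, and 30 of 31 within 0.2, that of *Psmd14* being the exception. Over all tested probes, 56.0% lay within 0.1 and 85.4% within 0.2. The median size of the log2 fold change was 0.0549 in the proteasome genes and 0.0874 over all tested probes, with median standard errors of 0.115 and 0.119. The 2 sets were not matched in brightness, with median log2 levels of 10.77 and 9.21. The 95% interval from limma held 0 for all 31 genes and lay within 0.5 of 0 for 30 of them. The lowest bound was -0.48, for *Psmb2*, and the highest was 0.73, for *Psmd14*, so that a log2 fold change of 1 in either direction fell outside every interval on intensities with background included, which understate the change of dim genes. On the deposited background-subtracted values the intervals of 29 of the 31 genes lay within 1 of 0, while those of *Psmd14* (-0.28 to 1.096) and the dim *Psme2* (-0.65 to 1.59) reached past 1.

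**Figure D1:**
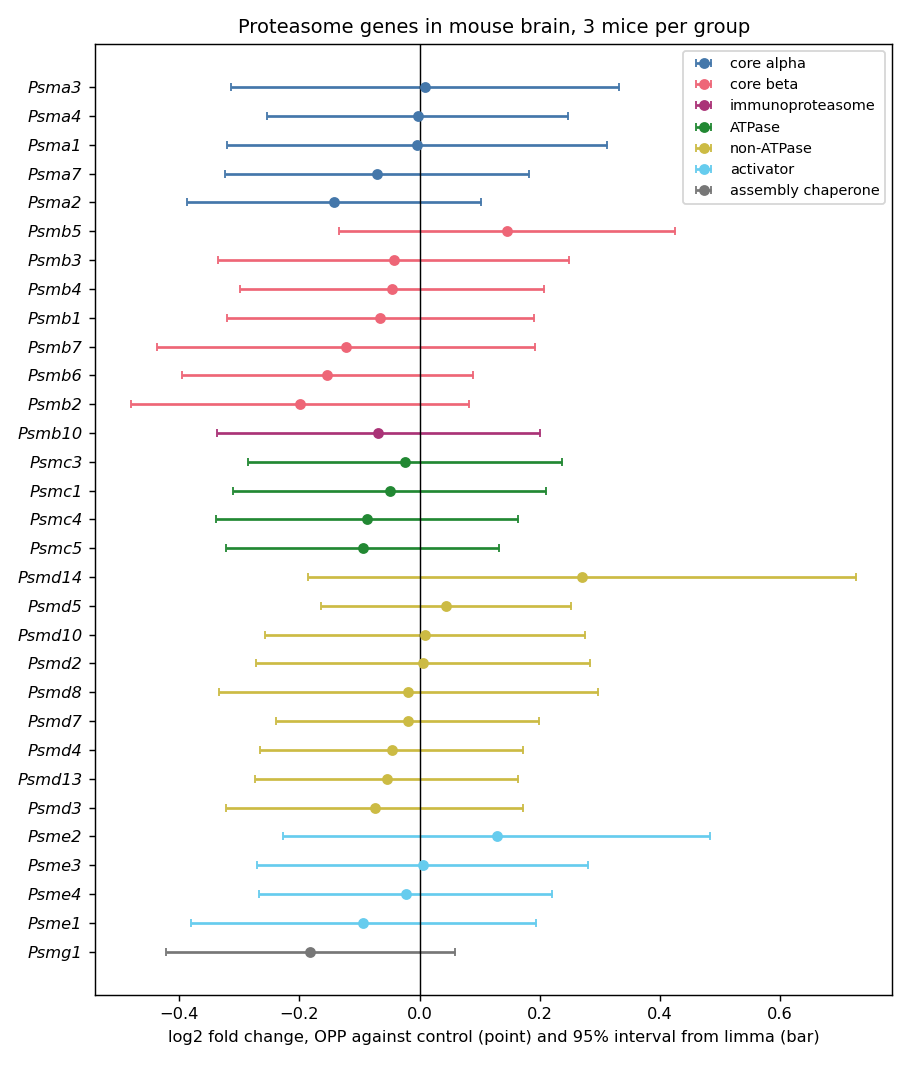
Log2 fold change of the 31 measured proteasome genes in brains of mice given OPP against controls (horizontal axis), with 1 gene per row, grouped and coloured by class. Points are limma estimates from 3 brains per group and bars are 95% intervals. Every bar crosses 0, and the widest reaches 0.73 for *Psmd14*.

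By direction, 8 genes lay above 0 and 23 below, or 74.2% below, with a median of -0.05, while 50.4% of all tested probes lay below 0 with a median of -0.0014. Relative to the median of all tested probes, 23 of the 31 genes lay lower and their median differed from it by -0.044, with or without scaling between the arrays, since scaling shifts all probes alike. Without control replicate 2, 16 of 31 lay lower and the difference was -0.0030. Leaving out OPP replicate 1 gave 18 of 32 and -0.059, and leaving out OPP replicate 3 gave 19 of 31 and -0.022. For control replicate 1, control replicate 3 and OPP replicate 2 the counts were 23 of 32, 22 of 31 and 22 of 30. The differences there were -0.071, -0.047 and -0.084. Array weights gave 17 of 31 and -0.0053. No test of the lean was made.

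The alpha subunits of the core lay close to 0. Of 5 measured genes, 1 lay above 0 and 4 below, with a median log2 fold change of -0.0044. The lowest fold change was that of *Psma2*, at scaled intensities of 8709.7, 8737 and 8067 in control replicates 1 to 3 and 7167, 8617 and 7392 in OPP replicates 1 to 3. OPP replicate 2 lay among the controls and the other 2 mice given OPP below all of them, and the log2 fold change was -0.14 with a standard error of 0.11 (95% interval -0.39 to 0.10). The highest fold change was that of *Psma3*, at 5128, 4184 and 5340.4 in control replicates 1 to 3 and 4244, 4790.2 and 5746 in OPP replicates 1 to 3. Here the groups covered nearly the same range, and the log2 fold change of 0.01 (standard error 0.14) was -0.10 without control replicate 2, -0.11 without OPP replicate 3 and -0.10 with arrays weighted by quality. *Psma1* (-0.0044), *Psma4* (-0.0029) and *Psma7* (-0.07) made up the rest.

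Of the standard catalytic subunits of the core, 1 lay above 0 and 2 below, and the groups overlapped for each. *Psmb5* encodes the subunit with chymotrypsin-like activity. It was at 888, 1067 and 963 in control replicates 1 to 3 and 1183, 935 and 1115 in OPP replicates 1 to 3. Of the mice given OPP 2 lay above all controls and 1 among them, and the log2 fold change was 0.15 with a standard error of 0.12 (95% interval -0.13 to 0.42). *Psmb6*, which encodes the subunit with caspase-like activity, was at 2956, 3329.8 and 3318 in control replicates 1 to 3 and 2704, 3149.7 and 2787 in OPP replicates 1 to 3. For this gene it was 2 of the mice given OPP that lay below all controls, and the log2 fold change was -0.15 (standard error 0.11, 95% interval -0.40 to 0.09). *Psmb7*, which encodes the subunit with trypsin-like activity, was at 2433, 2759.7 and 2560.3 in control replicates 1 to 3 and 2461, 2781 and 1947 in OPP replicates 1 to 3. A single mouse given OPP, replicate 3, was low, and the log2 fold change of -0.12 (standard error 0.14) was 0.02 without it. A second probe of *Psmb7* gave -0.05 (standard error 0.15).

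The catalytic subunits of the immunoproteasome were either dim or near 0. *Psmb8*, which replaces *Psmb5*, was not well above background in any brain. Its scaled intensities were 200.7, 216 and 215 in control replicates 1 to 3 and 234, 196 and 215 in OPP replicates 1 to 3, with detection p-values of 0.0977 to 0.420 from negative control beads. *Psmb9*, which replaces *Psmb6*, was likewise not well above background, at 164, 170.1 and 176 in control replicates 1 to 3 and 161, 181 and 156 in OPP replicates 1 to 3, with detection p-values of 0.630 to 0.872. For both genes no level could be read from these probes, and no fold change was formed. A probe at background does not show that its gene is low. The probes of the neuron gene *Snap25* and the astrocyte gene *Gfap* were not above background in these brains either. *Psmb10*, which replaces *Psmb7*, was above background in all 6 brains, at 945, 1147 and 1006 in control replicates 1 to 3 and 988, 885 and 1081 in OPP replicates 1 to 3. The groups overlapped, and the log2 fold change was -0.07 (standard error 0.12, 95% interval -0.34 to 0.20), and leaving out control replicate 2 or OPP replicate 2 gave 0.0081 and 0.0058. Its second probe gave 0.02 (standard error 0.11). *Psmb11*, which encodes the catalytic subunit of the thymus, was not well above background either.

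**Figure D2:**
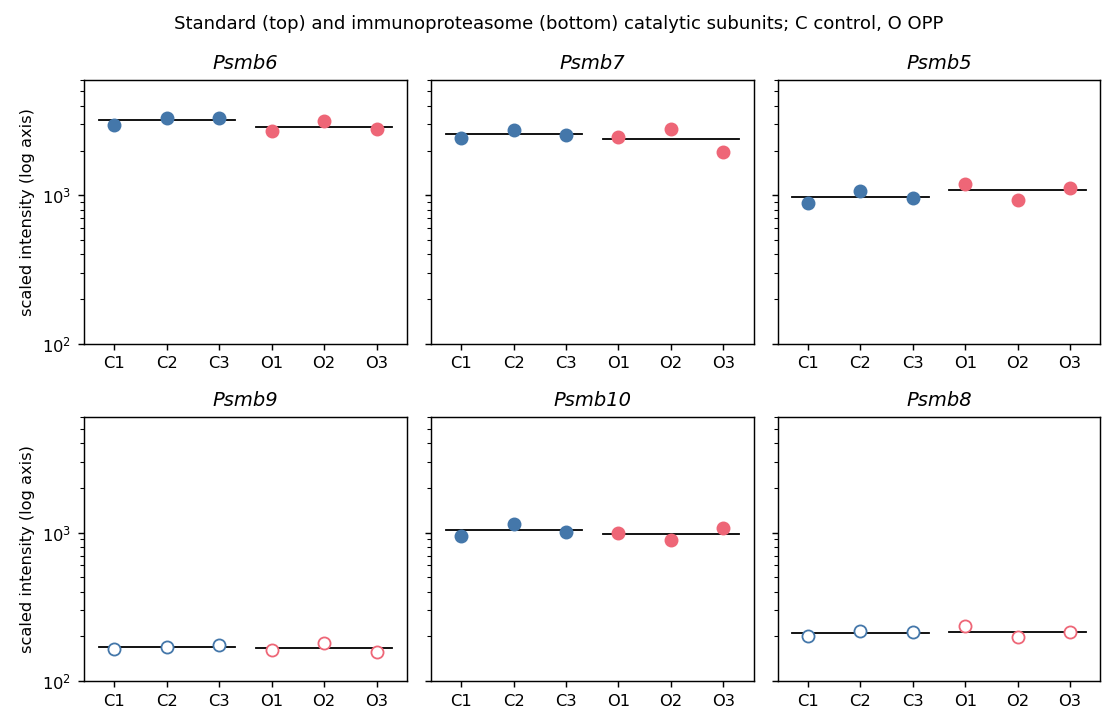
Scaled intensity on a log axis in each of the 6 brains for the standard catalytic subunits (top row) and, below each, the immunoproteasome subunit that replaces it. Filled points were above background and open points were not, lines are group means of 3 brains, and C1 to C3 are controls and O1 to O3 mice given OPP. Levels of different genes come from different probes and cannot be compared. The groups overlap in every panel, and *Psmb8* and *Psmb9* are open in all 6 brains.

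Of the beta subunits without catalytic sites, *Psmb2* had the lowest fold change of all 31 genes, at 2350.5, 2883 and 2562 in control replicates 1 to 3 and 2477, 2340.1 and 1981 in OPP replicates 1 to 3. OPP replicate 3 lay below all controls and OPP replicate 2 only just did, and the log2 fold change was -0.20 (standard error 0.12, unadjusted p = 0.144 in limma), or -0.10 without OPP replicate 3. *Psmb1* (-0.07), *Psmb3* (-0.04) and *Psmb4* (-0.05) lay nearer 0. With the standard catalytic subunits, 1 of the 7 measured beta genes lay above 0 and 6 below, with a median of -0.07. In that class the arrays of 1 group also differed from each other. In control replicate 2 all 7 beta genes lay above their mean over the 6 arrays (median difference 0.15), in control replicate 1 only 1 did (-0.04), and in OPP replicate 3 2 did (-0.13).

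In the ATPase ring, which unfolds substrates, 4 of 6 genes were measured and all 4 lay slightly below 0, with a median of -0.07. *Psmc5* had the lowest fold change, at 4091, 3704 and 4298 in control replicates 1 to 3 and 3768, 3656 and 3885 in OPP replicates 1 to 3. Control replicate 2 lay among the mice given OPP and the other 2 controls above them, and the log2 fold change was -0.09 (standard error 0.10, 95% interval -0.32 to 0.13). A dimmer second probe of *Psmc5* gave 0.0037 (standard error 0.14). *Psmc3* had the fold change nearest 0, at 2327, 2423 and 2273 in control replicates 1 to 3 and 2626, 2036 and 2278 in OPP replicates 1 to 3. The mice given OPP spanned more than the whole range of the controls, and the log2 fold change of -0.02 (standard error 0.12) was 0.04 without scaling, 0.02 with quantile normalization and 0.06 without OPP replicate 2. *Psmc1* (-0.05) and *Psmc4* (-0.09) were the others, and *Psmc2* and *Psmc6* were not above background.

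Among the other genes of the regulatory particle, 4 of 9 measured genes lay above 0 and 5 below, with a median of -0.02. *Psmd14* encodes the lid enzyme that cuts ubiquitin chains from substrates. It was at 555, 413 and 493 in control replicates 1 to 3 and 504, 483 and 815 in OPP replicates 1 to 3. Its value in OPP replicate 3 lay 0.62 above the mean of the 6 arrays on the log2 scale, and the other 2 mice given OPP lay among the controls. The log2 fold change of 0.27 (standard error 0.20, 95% interval -0.19 to 0.73) therefore rested on that brain and was 0.03 without it. It was 0.41 on the deposited background-subtracted values. *Psmd3*, which encodes a structural subunit of the lid, had the lowest fold change of these, at 6200.1, 5472 and 6752 in control replicates 1 to 3 and 5627, 6081 and 5731 in OPP replicates 1 to 3. The mice given OPP lay within the range of the controls, and the log2 fold change was -0.07 (standard error 0.11). The remaining lid genes *Psmd7* (-0.02), *Psmd8* (-0.02) and *Psmd13* (-0.05), the scaffold gene *Psmd2* (0.0052), the ubiquitin receptor gene *Psmd4* (-0.05) and the chaperone genes of the particle *Psmd5* (0.04) and *Psmd10* (0.0094) all lay within 0.1 of 0. Of these, *Psmd7* and *Psmd13* had a second measured probe, at -0.05 and -0.08.

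The activators were measured in all 4 genes, of which 2 lay above 0 and 2 below. *Psme1* and *Psme2* encode the partner subunits of the interferon-induced activator ring. *Psme1* was at 1201, 1569.7 and 1274 in control replicates 1 to 3 and 1349, 1275 and 1149.8 in OPP replicates 1 to 3. Control replicate 2 was the high one, and the log2 fold change of -0.09 (standard error 0.13) was 0.02 without it, while a dimmer second probe gave 0.04 (standard error 0.17). *Psme2* was at 224, 331 and 284 in control replicates 1 to 3 and 267, 342 and 301 in OPP replicates 1 to 3, above background in 1 of 3 controls and 2 of 3 mice given OPP. The single low brain was control replicate 1, and the log2 fold change of 0.13 (standard error 0.16, 95% interval -0.23 to 0.48) was -0.02 without it and 0.47 on the deposited background-subtracted values. *Psme2* passed the detection filter only through the mice given OPP, where it was higher, so the filter favoured a value above 0. *Psme3*, which encodes the nuclear activator ring (0.0049), and *Psme4*, which encodes a large nuclear activator (-0.02), lay at 0. Of the chaperones that assemble the core, *Psmg1* was measured, at 467, 523 and 463 in control replicates 1 to 3 and 399, 464 and 418 in OPP replicates 1 to 3. Only control replicate 3 lay below the highest mouse given OPP, by about 1 unit, and the log2 fold change was -0.18 (standard error 0.11, 95% interval -0.42 to 0.06). Its unadjusted p of 0.121 in limma was the smallest of the 37 probes, and its log2 fold change was -0.31 on the deposited background-subtracted values.

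Some members could not be tested. Of the 44 genes with a probe, 13 had none that passed the filter, namely the core genes *Psma5* and *Psma6*, the catalytic subunits *Psmb8*, *Psmb9* and *Psmb11*, the ATPases *Psmc2* and *Psmc6*, the regulatory particle genes *Psmd6*, *Psmd9*, *Psmd11* and *Psmd12*, and the chaperones *Psmg2* and *Psmg3*. *Psmd12* was above background in 1 of 3 mice given OPP, and *Psmg3* in 2 of 3 controls and 1 of 3 mice given OPP. In all, 60.7% of proteasome probes were tested, against 31.6% of all probes. Among the untested probes, control and OPP values did not overlap in 1 of *Psmd9*, which was higher in mice given OPP, and in *Psmb11* and 1 of *Psmd5*, which were lower, all 3 probes chosen after their values were seen and not above background in any brain. Over all 24048 probes, the groups did not overlap in 4.86% upward and 4.62% downward. *Psma8*, *Psmd1*, *Psmf1* and *Psmg4* were not analysed here, as no probe taken by the name pattern represented them. Of the probes set apart, *Psmc3ip* was not above background and *Psme3ip1* had a log2 fold change of -0.05.

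The proteasome genes varied largely apart from each other from brain to brain. Over the 6 arrays, the mean correlation between pairs of the 31 genes was 0.0271, against 0.0116 between pairs of all tested probes, and within groups it was 0.0025 against 0.0130. The number of the 31 genes above their own mean over the arrays was 17, 20 and 15 in control replicates 1 to 3 and 12, 16 and 11 in OPP replicates 1 to 3. The highest count was in control replicate 2, where 43.7% of all tested probes lay above their mean. The genes most like the mean of the other members were *Psmb6* (r = 0.95 over 6 arrays), *Psmg1* (r = 0.92) and *Psma2* (r = 0.70), and the least like it were *Psmd14* (r = -0.76) and *Psmd5* (r = -0.91). These are descriptions over 6 shared arrays.

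**Figure D3:**
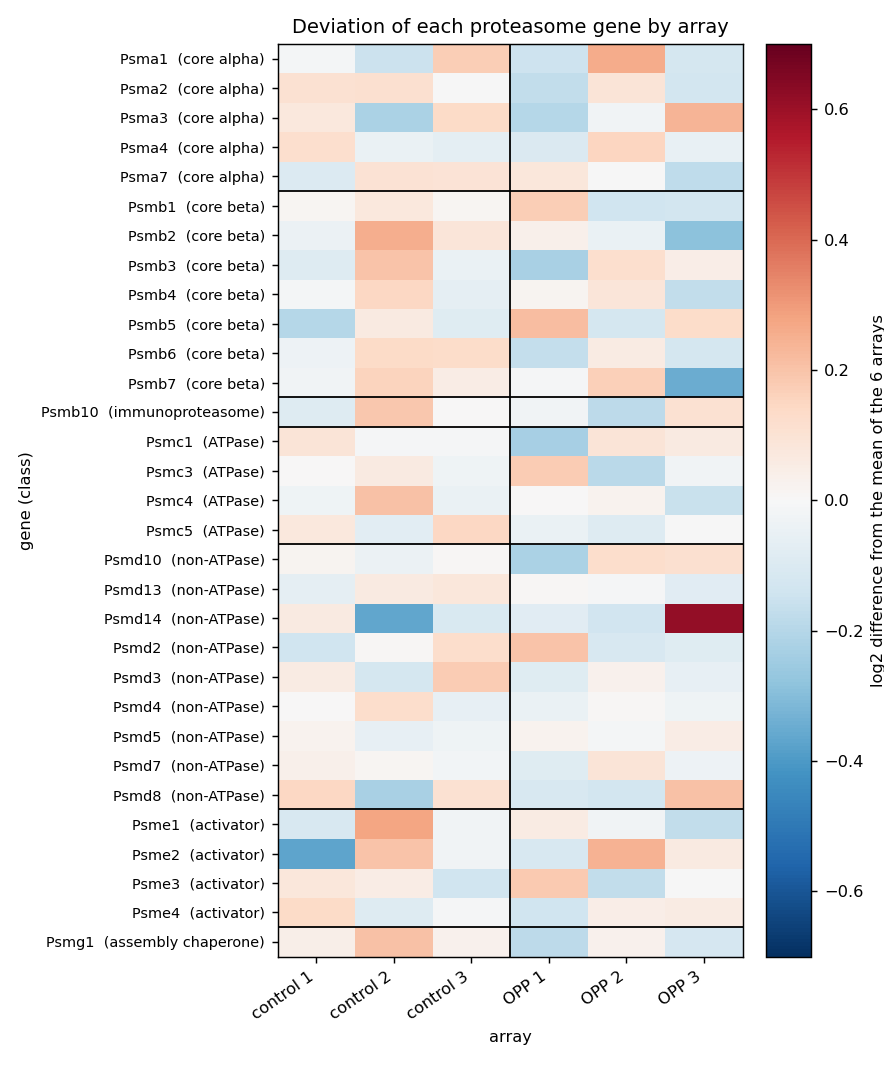
Log2 difference of each measured proteasome gene (rows, with class) from its mean over the 6 arrays, in each array (columns), red above and blue below the mean. Columns of 1 group do not share a colour, and the darkest cell is *Psmd14* in OPP replicate 3, at 0.62.

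**Figure D4:**
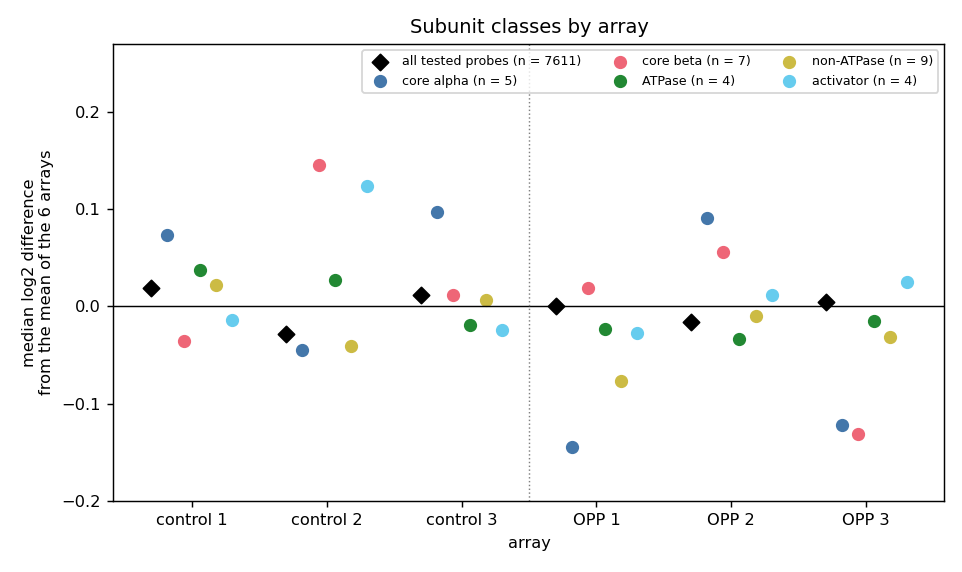
Median log2 difference from the mean of the 6 arrays (vertical axis) for each subunit class and for all tested probes, by array (horizontal axis). The beta subunits were highest in control replicate 2 (0.15) and lowest in OPP replicate 3 (-0.13), and the 3 controls and the 3 mice given OPP overlapped in every class.

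Genes that work with the proteasome but lie outside its naming pattern also showed no difference that passed the test. From a list of 31 such genes, 19 had a probe and 12 were measured. Of these, 0 passed an unadjusted p under 0.05 in limma in either direction, against 1.71% higher and 2.23% lower of all tested probes. At such shares 0 of 12 says little. Of the 12, 7 lay above 0 and 5 below, while 50.4% of all tested probes lay below 0. *Nfe2l1*, which encodes Nrf1, was at 3360, 3383 and 3480.1 in control replicates 1 to 3 and 3695, 3482 and 4268 in OPP replicates 1 to 3. The mice given OPP lay above all controls for this gene, replicate 2 only just, as the groups did in 4.26% of all tested probes, and the log2 fold change was 0.16 (standard error 0.11, 95% interval -0.08 to 0.40). For *Pomp*, which encodes the maturation factor of the core, the value was 0.13 (standard error 0.10), and the deubiquitinase genes *Usp14* and *Uchl5* had 0.20 (standard error 0.17) and 0.16 (standard error 0.13). The antigen processing genes *B2m*, of the class I light chain, and *Tap2*, of the peptide transporter, had -0.24 (standard error 0.19) and -0.22 (standard error 0.12), and *Tap1*, *Erap1* and the interferon factor gene *Irf1* were not above background in any brain. *Tapbp*, whose product helps load peptides, was above background in 1 of 3 controls and 2 of 3 mice given OPP and was not tested. *Vcp*, which encodes the unfoldase that hands substrates over, had -0.06 and its adaptor gene *Nploc4* -0.21 (standard error 0.11), where the mice given OPP lay below all controls, as in 5.22% of all tested probes. *Nfe2l2*, which encodes Nrf2, was not above background in any brain.

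The promoters of the members were read for the motifs of Nrf factors, of interferon factors and of factors common at promoters, since sequence was not used to choose the genes. RefSeq promoters of 300 bases around the start site (build GRCm38.p6) were matched to 37 of the 44 genes, in 40 windows, and each motif was searched on both strands. The antioxidant response element core TGACNNNGC, bound by Nrf2 and Nrf1, was in 6 of 40 windows (15%), against 12.4% of all 32851 windows. The ETS site CCGGAAG was in 15 of 40 (37.5%) against 8.86%, the interferon-stimulated core GAAANNGAAA in 4 of 40 (10%) against 3.44%, and CCAAT in 14 of 40 (35%) against 37.4%. The windows below show the antioxidant core in the catalytic genes *Psmb5* and *Psmb6*, whose log2 fold changes had opposite signs, the ETS site in an ATPase gene, a scaffold gene and a chaperone gene, and the interferon-stimulated core in *Psmb3*. Capitals mark the motif, written 5′ to 3′ on the strand of the gene, so that a motif on the other strand appears as its reverse complement.
Psmb5, chr14:54618014-54618062, minus strand: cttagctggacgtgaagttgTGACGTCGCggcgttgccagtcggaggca
Psmb6, chr11:70525328-70525376, plus strand: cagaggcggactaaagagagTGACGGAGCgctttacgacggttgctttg
Psmc1, chr12:100110154-100110200, plus strand: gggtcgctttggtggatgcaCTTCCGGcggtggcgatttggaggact
Psmd2, chr16:20651606-20651652, plus strand: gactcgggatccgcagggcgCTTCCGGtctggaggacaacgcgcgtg
Psmg1, chr16:95991003-95991049, minus strand: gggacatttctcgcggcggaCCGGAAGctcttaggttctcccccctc
Psmb3, chr11:97703251-97703300, plus strand: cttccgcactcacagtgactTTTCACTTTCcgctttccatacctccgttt
A match is a description of these letters and not a site shown to be bound. The genes with an antioxidant core in the window that were measured, *Psmb5*, *Psmb6* and *Psme4*, had log2 fold changes of 0.15, -0.15 and -0.02. In the RefSeq gene order, *Psmb5* lies next to *Psmb11*, *Psmb8* and *Psmb9* alternate with *Tap1* and *Tap2*, and *Psme1* and *Psme2* are separated by 1 gene, *Emc9*.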

How the data were processed

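Total RNA of 6 brains was hybridized to Illumina MouseRef-8 Version 1 arrays. The authors summarized beads into a mean intensity per probe, with background included, and a detection p-value with BeadStudio (version 1.5.1.3, per the submitters' processing notes). A second deposited table held the authors' background-subtracted, scaled intensity, from which 174 to 205 units, counted on the scaled values, had been removed per array. Intensities were scaled on rank-invariant probes (rank difference under 5%, reference rank 50% to 90%), floored at 10 and log2-transformed. Probes whose detection level averaged over 0.99 in either group were fitted with limma (version 3.58.1, R 4.3.3), a step tested on simulated data, with Benjamini-Hochberg adjustment over all of them. The Illumina error model of the methods was not rebuilt. The number of arrays limits the precision. Fold changes on intensities understate the change of dim probes. Of all probes, 19398 had 1 symbol, 0 several and 4650 none. The brightest tested probe stood for a gene. Named with values were the catalytic subunits, *Psme1*, *Psme2*, probes that passed a test, and the extremes of each class. Pathway genes were named from a list. Members and lists were chosen with earlier results of these data known. Alternatives were other scalings, backgrounds, filters, an offset of 50, array weights, a replicate block, Student's t-test and leaving out each array. The methods name that t-test for behaviour and PCR values and not for the arrays.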

Additional observations from a re-analysis of the deposited data

How the results depend on the processing

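No proteasome probe passed an adjusted p under 0.05 in limma or Student's t-test under any of the 16 alternatives, and lower values at an unadjusted p under 0.05 stayed at 0. With no filter on detection, 1 of 61 probes was higher at an unadjusted p under 0.05, a dim probe of *Psmd9* (log2 fold change 0.26, adjusted p = 0.991 in limma), and the groups did not overlap in 1 higher and 2 lower probes (4.86% and 4.62% of all probes in that setting). On the authors' background-subtracted values they did not overlap in 1 lower probe (*Psmc5*; 5.45% of all tested probes). Leaving out 1 array gave 0 to 2 higher and 0 to 5 lower probes with no overlap, of 36 to 38, against 7.44% to 11.1% and 8.57% to 17.7% of all tested probes. Without OPP replicate 2 these were 2 higher and 5 lower of 36, against 11.1% and 10%, with both measured probes of *Psmd7* among the lower. Without control replicate 2 they were 0 and 2 of 37, against 10.8% and 17.7%. The median log2 fold change of the ATPase genes was -0.0084 without scaling, -0.037 with no filter, -0.033 with array weights and -0.10 to -0.037 without 1 array. That of the non-ATPase genes was 0.041 without scaling and -0.050 to 0.023 without 1 array, and that of all classes was 0.014 without scaling. The number of genes below 0, a count added after seeing the data, was 12 of 31 without scaling, which adds the same amount to every gene, and 18 to 23 without 1 array. Counted against the median of all tested probes, it was 23 without scaling and 16 to 23 without 1 array, lowest without control replicate 2. Over the alternatives, the log2 fold changes of 20 of the 31 genes took both signs, 3 stayed above 0 (*Psmb5*, *Psmd5*, *Psmd14*) and 8 below. Among the genes given with values in each brain, signs turned for *Psma3* (-0.10 with array weights, -0.11 to 0.11 without 1 array), for *Psmc3* (0.036 without scaling, 0.021 with quantile normalization, 0.022 with normexp and quantile, -0.12 to 0.064 without 1 array) and, without 1 array, for *Psmb7* (-0.24 to 0.021), *Psmb10* (-0.14 to 0.0081), *Psme1* (-0.17 to 0.019) and *Psme2* (-0.024 at the lowest). The cause of these shifts was not tested. Over all tested probes, an unadjusted p under 0.05 was reached by 130 upward and 170 downward, or 43.3% upward, against 147 and 71, or 67.4%, without scaling. The counts were 277 and 479 with array weights, 465 and 506 with no filter, 295 and 532 without control replicate 2, 71 and 129 without control replicate 1, and 85 and 115 without OPP replicate 3. With an adjusted p under 0.05 in limma there was 1 such probe, 7 without control replicate 2, 3 with array weights and 0 among probes detected in all 6 arrays. With Student's t-test in place of limma there was also 0. Same-numbered arrays deviated from their group means with correlations of -0.27, 0.05 and 0.17. Deviations within groups of 3 depend on each other, so these values cannot settle whether the numbers pair the brains. No label says that they do. A replicate block left 0 proteasome probes at an unadjusted p under 0.05, and over all tested probes 97 upward and 141 downward.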
